A study of Mus musculus with 6 samples.

Results

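Small heat shock proteins and the co-chaperone BAG3 were followed as transcripts in primary cardiomyocytes from wild-type neonatal mouse heart. The set was 10 genes of muscle protein quality control, chosen by symbol: Hspb1, Hspb6, Hspb7, Hspb8, Cryab, Bag3, Hspa1a, Hspa1b, Hsp90aa1 and Dnajb1. All 10 were present among the 32245 gene symbols of the count files, and all 10 passed the filter on low counts that left 14378 genes. The cells had been given BMP2 with dorsomorphin (BMP2+DM), BMP2, or phosphate-buffered saline (PBS), with 2 libraries of polyadenylated RNA in each group. BMP2 is a secreted growth factor that signals through BMP receptor kinases and SMAD transcription factors. Dorsomorphin inhibits those kinases and also AMP-activated protein kinase. No group had dorsomorphin alone. The labels state neither dose nor duration, nor whether the replicates were separate cultures or animals. The p-values therefore measure only the spread between these libraries, which may be technical.

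Small heat shock proteins are short chaperones built around an alpha-crystallin domain. They hold unfolding proteins in a soluble state without using ATP. In heart muscle HSPB1, alpha-B-crystallin (the product of Cryab), HSPB6 and HSPB7 associate with desmin, titin and actin filaments. HSPB8 is the partner of BAG3, a scaffold that also binds HSP70 and hands damaged filament proteins to autophagy. HSP70 (Hspa1a, Hspa1b) with its J-domain partner DNAJB1, and HSP90 (Hsp90aa1), refold clients with ATP. Heat shock factor 1 activates many of these genes under stress through heat shock elements, which are inverted repeats of the letters GAA.

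Promoter windows from RefSeq (GRCm38.p6), running from 250 bases before to 50 bases after each annotated start, were found for 8 of the 10 genes, in 10 windows. Cryab and Hsp90aa1 were not matched. The windows were searched for 2 inverted units of the heat shock element, GAANNTTC or TTCNNGAA; each reads the same on both strands. Matches were found for Hspb1, Hspb6, Hspb8, Bag3, Hspa1a and Hspa1b, and none for Hspb7 or Dnajb1. Of all 32851 promoter windows, 15.1% held such a match, and 17.0% of 27025 genes had a window with it. A longer form of the element, with a further inverted unit, was also sought. It was found in none of the 10 windows of these genes, and in 0.603% of all 32851 windows. Each match is shown with 11 bases on either side (fewer where the window ends), 5′ to 3′ on the gene's strand, with the match in capitals, because the same letters recur in genes whose transcripts changed in opposite directions.
Hspb1, chr5:135887791-135887820, plus strand: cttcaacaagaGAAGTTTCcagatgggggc
Hspb1, chr5:135887811-135887840, plus strand: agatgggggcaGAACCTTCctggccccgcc
Hspb6, chr7:30553170-30553199, plus strand: aagtaattattGAAGTTTCtaaataaggaa
Hspb8, chr5:116422844-116422873, minus strand: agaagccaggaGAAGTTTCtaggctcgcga
Bag3, chr7:128523614-128523632, plus strand: ggatgggaccaGAAGTTTC
Hspa1a, chr17:34972242-34972271, minus strand: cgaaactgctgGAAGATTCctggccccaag
Hspa1b, chr17:34959324-34959353, minus strand: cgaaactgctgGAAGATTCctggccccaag

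The form GAAGTTTC stood in a window of Hspb1, Hspb6, Hspb8 and Bag3. It, or its complement on the other strand, was in 1.21% of all windows. This form was singled out after the sequences had been read, so its presence in 4 of these genes is a description only. It began 117 bases before the start of Hspb1, 120 bases before the second annotated start of Hspb6, at base 3 after the start of Hspb8 and at base 43 after that of Bag3. The Hspa1a and Hspa1b windows were identical at 296 of 300 bases, and their matches both began 104 bases before the start. A match of letters does not show that a factor binds there. The 250 bases before the start are given for Hspb1, which fell with BMP2, and for Hspb8, which rose; matches are again in capitals, and the Hspb8 match lies outside this stretch.
Hspb1, chr5:135887669-135887918, plus strand: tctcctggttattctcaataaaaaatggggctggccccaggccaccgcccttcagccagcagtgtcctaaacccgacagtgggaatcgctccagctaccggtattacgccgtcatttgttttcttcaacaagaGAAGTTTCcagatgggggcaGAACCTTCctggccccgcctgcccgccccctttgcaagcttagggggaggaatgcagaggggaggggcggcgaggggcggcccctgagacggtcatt
Hspb8, chr5:116422865-116423114, minus strand: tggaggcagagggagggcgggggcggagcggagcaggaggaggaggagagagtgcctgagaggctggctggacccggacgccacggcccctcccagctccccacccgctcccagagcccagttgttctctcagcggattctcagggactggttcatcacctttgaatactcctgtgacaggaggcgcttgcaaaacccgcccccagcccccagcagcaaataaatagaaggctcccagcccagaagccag

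**Figure D1:**
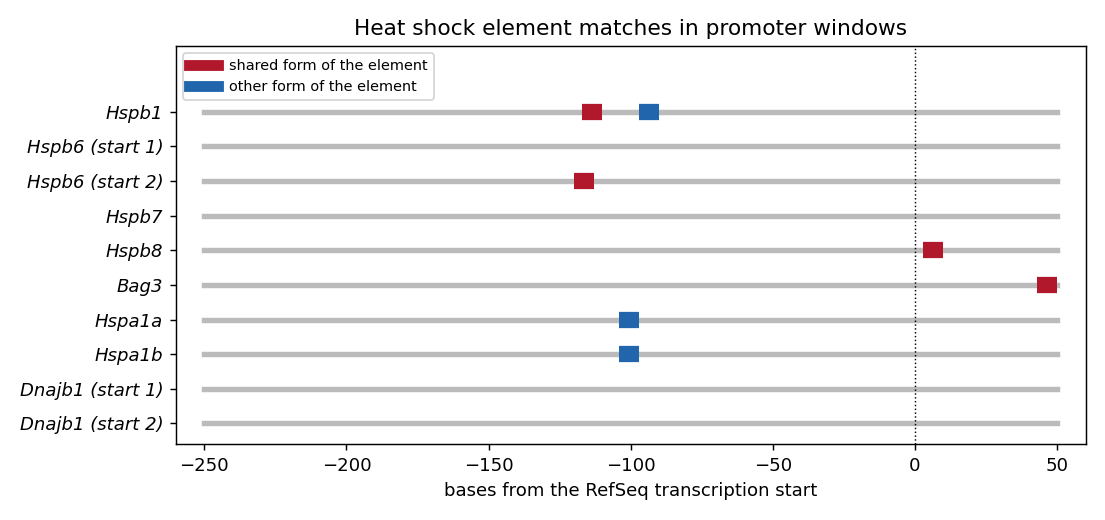
Positions of 2-unit heat shock element matches (coloured blocks) in the 10 promoter windows of 8 genes (grey lines), in bases from the RefSeq transcription start (dotted line). The form shared by Hspb1, Hspb6, Hspb8 and Bag3 is in red and other forms are in blue; the Hspb1 and Hspb6 matches lie before the start, and those of Hspb8 and Bag3 after it.

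The libraries held between 10106667 and 14366042 reads assigned to genes. In BMP2 replicate 1 the gene models AY036118 and Gm42418, which lie on ribosomal repeats, took 2.10% of those reads, and in PBS replicate 1 they took 1.31%. The remaining 4 libraries had 0.0702% to 0.0928%. For the 10 members, results that depend on the 2 high libraries are given with and without both. Calls for the other gene lists and the markers come from all libraries and were not rechecked without those 2. Of 7 cardiomyocyte markers all were detected, with a summed level of 24061 to 24505 CPM (counts scaled to the TMM-adjusted library size) in BMP2+DM, 21795 to 21894 CPM in BMP2 and 28460 to 28738 CPM in PBS libraries. Markers of fibroblasts summed to 10102 to 11875 CPM over the 6 libraries, those of smooth muscle and pericytes to 1965 to 3279 CPM, and those of endothelial cells, leukocytes and the epicardium to 62.0 to 237 CPM each. No marker in these lists was at 0 in every library.

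Per kilobase of annotated exon, Cryab and Hspb7 had the most assigned reads of the 10 genes. Cryab stood at 294 ± 5.22 CPM per kb in BMP2+DM, 265 ± 7.03 in BMP2 and 391 ± 19.3 in PBS (SD, n = 2 each). Hspb7 stood at 202 ± 18.5, 253 ± 6.05 and 278 ± 8.69 CPM per kb in the same groups. In PBS the order went on with Hsp90aa1 (160.02 ± 4.87 CPM per kb) and Hspb1 (121 ± 0.942 CPM per kb). Hspb6 (48.9 ± 3.68 CPM per kb), Hspb8 (45.5 ± 1.09) and Bag3 (43.7 ± 0.506) followed close together, and the gap between Hspb6 and Hspb8 was within the SD of Hspb6. Dnajb1 had 18.1 ± 1.01 CPM per kb in PBS, Hspa1b 3.21 ± 0.822 and Hspa1a 1.51 ± 0.893. The inducible HSP70 genes thus had the fewest assigned reads per kb of the set. Of their 50-base stretches, 66.3% in Hspa1a and 62.3% in Hspa1b also occur in other genes. For Hspb1 this share was 50.1% and for Hsp90aa1 47.5%. Reads that did not align uniquely were not counted, so these 4 genes may be undercounted. The order is therefore one of assigned reads. Of the small heat shock proteins of the filaments, Cryab, Hspb7 and Hspb1 were among the richest, while Hspb6 was not. With BMP2 the position of Hspb8 changed: at 75.4 ± 2.94 CPM per kb it stood above Hspb6 (40.4 ± 3.37) and Bag3 (44.0 ± 0.487), and within the SD of Hspb1 (85.1 ± 10.3). All levels and fold changes below are on CPM, with log2 fold changes ± SE from edgeR's quasi-likelihood test and p-values adjusted over the 14378 genes.

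Hspb1 encodes HSP25 in the mouse (HSP27 in human), which caps and protects actin filaments. The gene lies on chromosome 5 (135887919 to 135889563, plus strand, mm10). It had 114 and 124 CPM in BMP2+DM libraries, 80.2 and 95.2 CPM in BMP2 libraries, and 124 and 126 CPM in PBS libraries. Both BMP2 libraries lay below all others, and the BMP2+DM pair lay close under the PBS pair without overlapping it. Hspb1 fell with BMP2 by 0.51 ± 0.09 on the log2 scale against PBS (adjusted p = 0.000417). With dorsomorphin added it was higher by 0.44 ± 0.09 against BMP2 (adjusted p = 0.00347). Against PBS, BMP2+DM was at −0.07 ± 0.09, which did not pass (adjusted p = 0.613, 95% interval −0.25 to 0.11). The rise with dorsomorphin was no longer called without BMP2 replicate 1 (0.32, adjusted p = 0.0783). Without both ribosomal-repeat libraries neither change was called (−0.40, adjusted p = 0.110, for BMP2 against PBS and 0.32, adjusted p = 0.187, for BMP2+DM against BMP2). Of the 50-base stretches of Hspb1 transcripts, 48.8% also occur in the pseudogene Hsp25-ps1, so reads from those stretches may not align uniquely.

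Cryab encodes alpha-B-crystallin, a chaperone of desmin and titin. The gene lies on chromosome 9 (50751325 to 50756636, plus strand, mm10). It had 429 and 440.0 CPM in BMP2+DM libraries, 385 and 399.6 CPM in BMP2 libraries, and 599 and 559 CPM in PBS libraries. The 3 groups did not overlap, with BMP2 lowest and PBS highest. Cryab fell with BMP2 by 0.56 ± 0.05 on the log2 scale, which is 32.2% below PBS (adjusted p = 2.03e-07). BMP2+DM against BMP2 was 0.15 ± 0.05, which did not pass (adjusted p = 0.0701). BMP2+DM was also lower than PBS, at −0.41 ± 0.05 (adjusted p = 5.14e-06). Both falls were called in 15 of 15 alternative settings. Of Cryab's exonic bases, 17.0% lie within exons of Hspb2, the divergent neighbour on the minus strand, which encodes another muscle small heat shock protein. The strand setting of the counting is not given, so reads from that overlap cannot be told apart. Hspb2 itself had 70.8 and 77.0 CPM in BMP2+DM, 55.6 and 53.6 CPM in BMP2, and 86.9 and 74.2 CPM in PBS libraries. It fell with BMP2 by 0.56 ± 0.10 (adjusted p = 0.000723) and rose by 0.44 ± 0.10 when dorsomorphin was added (adjusted p = 0.0117).

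Hspb6 encodes HSP20, which in muscle is a target of cyclic-nucleotide-dependent kinases. It had 88.2 and 102 CPM in BMP2+DM libraries, 87.3 and 98.2 CPM in BMP2 libraries, and 118 and 106 CPM in PBS libraries. The BMP2+DM and BMP2 pairs overlapped and both lay below PBS. BMP2 against PBS was −0.28 ± 0.09, just past the threshold of 0.05 (adjusted p = 0.0497). That call was lost when any PBS or BMP2 library was left out, with values from −0.37 (adjusted p = 0.0535, without BMP2 replicate 2) to −0.20 (adjusted p = 0.339, without PBS replicate 1), and without both ribosomal-repeat libraries it was −0.12 (adjusted p = 0.725). It was also lost with DESeq2 (adjusted p = 0.0840) and with library sizes only (−0.25, adjusted p = 0.0802), so that 8 of 15 alternatives kept it. BMP2+DM against PBS (−0.24 ± 0.09, adjusted p = 0.0743) and against BMP2 (0.04 ± 0.09, adjusted p = 0.873) did not pass; the first was called without BMP2+DM replicate 2 (−0.35, adjusted p = 0.0333).

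Hspb7 encodes the cardiovascular small heat shock protein, which binds actin and filamin C. The gene lies on chromosome 4 (141420779 to 141425311, plus strand, mm10). It had 524 and 597 CPM in BMP2+DM libraries, 713 and 689.7 CPM in BMP2 libraries, and 787 and 753 CPM in PBS libraries. The BMP2+DM pair lay well below the rest. BMP2+DM was lower than BMP2, at −0.32 ± 0.06 (adjusted p = 0.00183), and lower than PBS, at −0.46 ± 0.06 (adjusted p = 1.94e-05). BMP2 against PBS was −0.13 ± 0.06 and did not pass (adjusted p = 0.149). Without both ribosomal-repeat libraries the fall against BMP2 was −0.30 and not called (adjusted p = 0.106), while that against PBS was called in 15 of 15 alternatives.

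Hspb8 encodes HSP22, the small heat shock protein that works with BAG3, and it was the member that rose with BMP2. The gene lies on chromosome 5 (116408491 to 116422864, minus strand, mm10). It had 104 and 98.2 CPM in BMP2+DM libraries, 151 and 143 CPM in BMP2 libraries, and 87.3 and 90.3 CPM in PBS libraries. The BMP2 pair lay above every other library, and the BMP2+DM pair lay just above PBS. BMP2 against PBS was 0.73 ± 0.08, or 65.7% higher (adjusted p = 2.28e-06). With dorsomorphin added it was lower than with BMP2, at −0.54 ± 0.08 (adjusted p = 0.000174). BMP2+DM against PBS was 0.19 ± 0.08, which did not pass (adjusted p = 0.0948, 95% interval 0.03 to 0.36). The rise with BMP2 and the fall with dorsomorphin were called in 15 of 15 alternatives each, including the fit without both ribosomal-repeat libraries (0.66, adjusted p = 0.0155, and −0.50, adjusted p = 0.0409). The comparisons BMP2 against PBS and BMP2+DM against BMP2 share the BMP2 libraries, so opposite signs between them are not independent measurements.

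**Figure D2:**
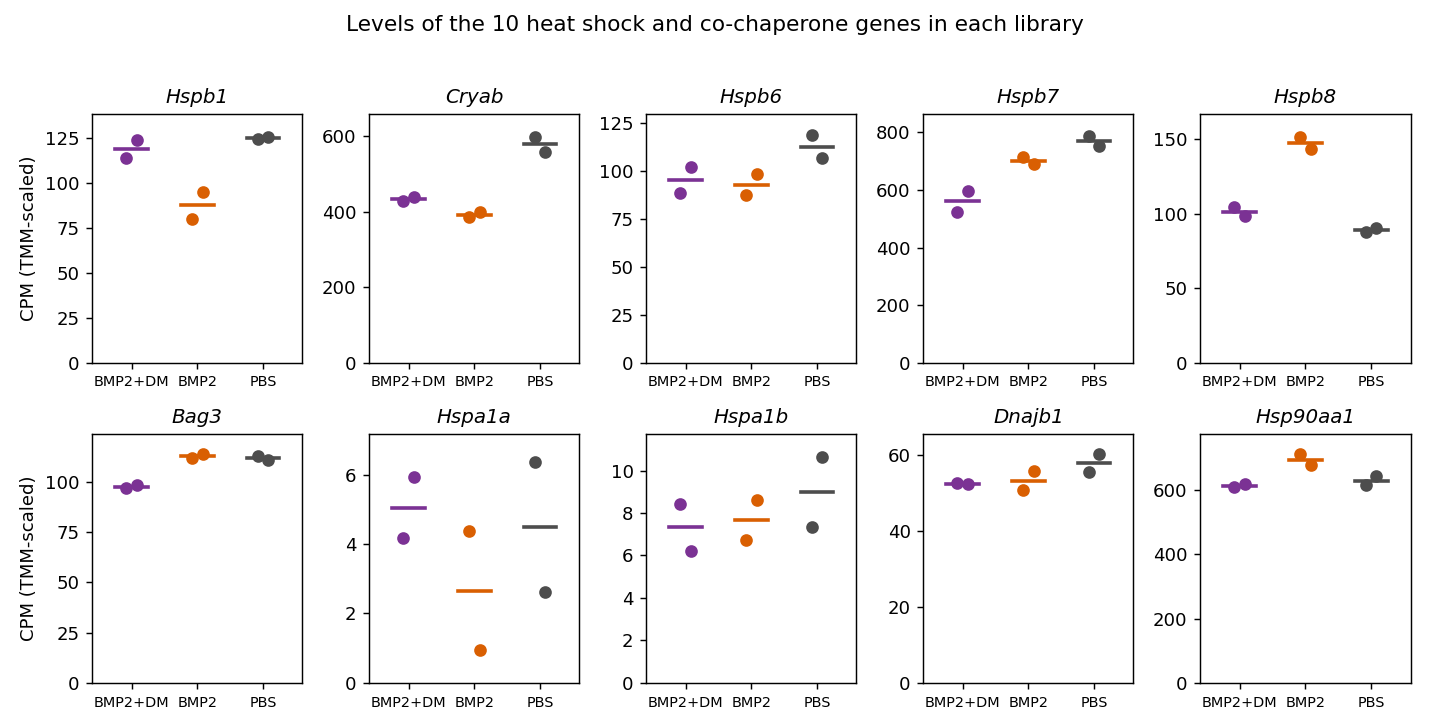
Levels of the 10 genes in each library, in TMM-scaled CPM on axes that start at 0; each point is a library, the short line is the group mean, and groups run BMP2+DM, BMP2, PBS. Hspb1 and Hspb8 stand apart in the BMP2 pair in opposite directions, Cryab is highest in PBS, Hspb7 and Bag3 are lowest in BMP2+DM, and Hspa1a libraries of a group lie far apart.

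Bag3, on chromosome 7 (128523616 to 128546981, plus strand, mm10), did not share the rise of its partner Hspb8 in BMP2 against PBS. It had 97.0 and 98.3 CPM in BMP2+DM libraries, 112 and 114 CPM in BMP2 libraries, and 113 and 111 CPM in PBS libraries. BMP2 and PBS overlapped, and both BMP2+DM libraries lay lower. BMP2 against PBS was 0.01 ± 0.07 (adjusted p = 0.953), with a 95% interval of −0.15 to 0.17. BMP2+DM was at −0.21 ± 0.08 against BMP2 (adjusted p = 0.105) and −0.20 ± 0.08 against PBS (adjusted p = 0.0737), neither of which passed, in the main fit or in any of 15 alternatives.

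The ratio of Hspb8 to Bag3, on CPM per kb of exon, was 1.41 and 1.31 in BMP2+DM libraries, 1.77 and 1.65 in BMP2 libraries, and 1.02 and 1.07 in PBS libraries. The groups did not overlap, with the most Hspb8 per Bag3 transcript in BMP2. Cryab over Hspb8 ran the other way, at 5.42 and 5.91 in BMP2+DM libraries, 3.36 and 3.68 in BMP2 libraries, and 9.05 and 8.16 in PBS libraries. Hspb1 over Hspb8 was 2.07 and 2.39 in BMP2+DM libraries, 1.004 and 1.26 in BMP2 libraries, and 2.70 and 2.64 in PBS libraries. These ratios describe the mix of reads assigned to these genes and were not tested. Hspb1 may be undercounted because it shares sequence with other genes, so its ratio to Hspb8 may be too low in every group.

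**Figure D3:**
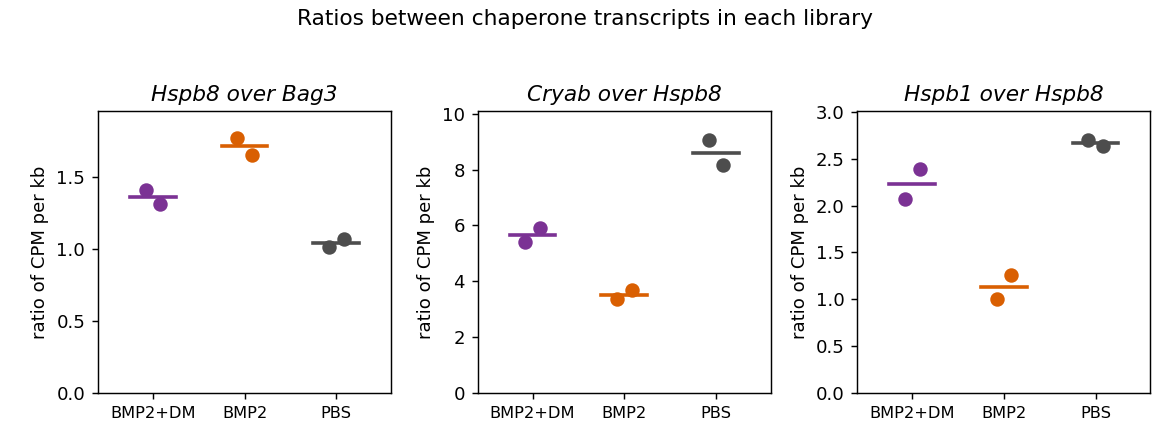
Ratios of transcript levels per kb of exon for Hspb8 over Bag3, Cryab over Hspb8 and Hspb1 over Hspb8 in each library; points are libraries, lines are group means, and groups run BMP2+DM, BMP2, PBS. Hspb8 over Bag3 is highest in the BMP2 pair (1.77 and 1.65), where the other ratios are lowest.

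The stress-inducible HSP70 genes had low and uneven counts. Hspa1a and Hspa1b are neighbouring genes with nearly the same product, and 58.8% of the 50-base stretches of Hspa1a transcripts also occur in Hspa1b. Hspa1a had 43 and 61 counts in BMP2+DM libraries, 48 and 10 counts in BMP2 libraries, and 89 and 30 counts in PBS libraries. Hspa1b had 87 and 64 counts in BMP2+DM, 74 and 90 counts in BMP2, and 103 and 122 counts in PBS libraries. Neither gene passed in any comparison, and the split of reads between them is uncertain. Of Hspa1a's exonic bases, 19.0% also lie within exons of Gm20481 on the opposite strand. The strand setting of the counting is not given, so reads from that overlap cannot be told apart. Without BMP2 replicate 1, the comparisons of Hspa1a with BMP2 rest on the library with 10 counts and were called (−2.24, adjusted p = 0.0318, against PBS, and 2.39, adjusted p = 0.0388, for BMP2+DM against BMP2). Summed as a single feature, the pair stood at 12.6 and 12.1 CPM in BMP2+DM libraries, 11.1 and 9.55 CPM in BMP2 libraries, and 13.7 and 13.2 CPM in PBS libraries. The sum was lowest in BMP2, but BMP2 against PBS was −0.38 ± 0.19 and did not pass (adjusted p = 0.194). BMP2+DM against BMP2 was 0.26 ± 0.19 for the sum (adjusted p = 0.478).

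Dnajb1, the J-domain partner of HSP70, had 52.8 and 52.4 CPM in BMP2+DM libraries, 50.8 and 55.8 CPM in BMP2 libraries, and 55.7 and 60.2 CPM in PBS libraries. It did not pass in any comparison, and BMP2 against PBS was −0.12 ± 0.10 (adjusted p = 0.504, 95% interval −0.34 to 0.10). Hsp90aa1, the stress-responsive cytosolic HSP90, had 608 and 619 CPM in BMP2+DM libraries, 711 and 678 CPM in BMP2 libraries, and 615 and 643 CPM in PBS libraries. The BMP2 pair lay above both other groups, which overlapped. BMP2+DM was lower than BMP2, at −0.18 ± 0.05 (adjusted p = 0.0362), a call lost when any BMP2 or BMP2+DM library was left out (−0.15 to −0.21, adjusted p up to 0.254) and without both ribosomal-repeat libraries (−0.15, adjusted p = 0.249). BMP2 against PBS was 0.14 ± 0.05 and did not pass with edgeR (adjusted p = 0.0677), but did with DESeq2 (adjusted p = 0.0464) and limma-voom (adjusted p = 0.0265). Of the 50-base stretches of Hsp90aa1, 41.8% also occur in the pseudogene Gm12346.

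Counted together, 1 of the 10 genes rose and 3 fell in BMP2 against PBS, where 15.8% of all tested genes were called (6.55% higher and 9.29% lower). DESeq2 called 2 higher (Hspb8 and Hsp90aa1) and 2 lower (Hspb1 and Cryab). The groups did not overlap for 6 of the 10, as for 55.9% of all tested genes. The median log2 fold change of the 10 was −0.18, against 0.0044 over all tested genes. With dorsomorphin added to BMP2, 1 rose and 3 fell, where 8.73% of all tested genes were called (4.28% higher and 4.44% lower). Groups stood apart for 6 of the 10, against 50.3% of all tested genes, and the medians were −0.04 for the 10 and 0.00035 for all. For BMP2+DM against PBS, 0 rose and 2 fell with edgeR and with DESeq2, where 20.9% of all tested genes were called (9.38% higher and 11.5% lower, or 12.8% and 9.58% with library sizes only); at an unadjusted p under 0.05 the counts were 1 and 4. Here 7 of the 10 did not overlap, against 58.5% of all tested genes, and the medians were −0.17 and 0.0070. The shares of non-overlapping genes, and the share called in the last comparison, were near those of tested genes at large. Without both ribosomal-repeat libraries, 1 rose and 1 fell with BMP2 against PBS, where 1.16% of all tested genes were higher and 2.74% lower. In BMP2+DM against BMP2, 0 rose and 1 fell in that fit, where 0.93% of all tested genes were higher and 1.2% lower. Calls over all genes were thus also several times fewer there. In BMP2 against PBS, Hspb8 moved opposite to Hspb1 and Cryab.

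**Figure D4:**
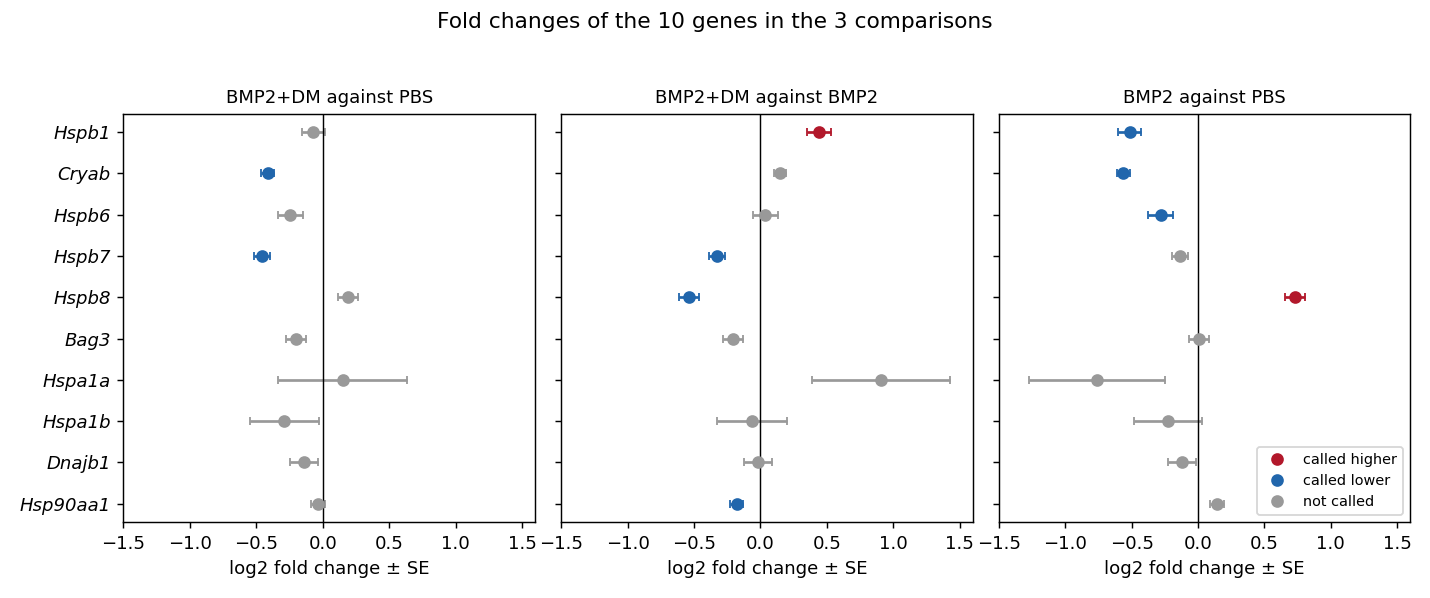
Log2 fold changes with standard errors for the 10 genes in BMP2+DM against PBS, BMP2+DM against BMP2, and BMP2 against PBS (edgeR, 2 libraries per group); red is called higher, blue called lower and grey not called at an adjusted p of 0.05. Hspb8 is at 0.73 and Cryab at −0.56 in BMP2 against PBS, and Hspa1a has the widest errors.

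The falls of Cryab, Hspb1 and Hspb6 with BMP2 came in cultures where sarcomere transcripts were also lower. These calls were kept in 15, 14 and 8 of 15 alternatives, and Hspb7, also filament-bound, was not called in BMP2 against PBS. Of the 7 cardiomyocyte markers, 0 rose and 5 fell in BMP2 against PBS, with edgeR, with DESeq2 and at an unadjusted p under 0.05. Nkx2-5 (0.11 ± 0.11, adjusted p = 0.539) and Tnni3 (0.01 ± 0.06, adjusted p = 0.918) were not called by edgeR. The markers Tnnt2, Tnni3, Myh6, Actc1 and Actn2 are also among the 20 sarcomere genes, so the counts of these lists are largely of the same genes. Of 20 sarcomere genes, 1 rose and 18 fell in BMP2 against PBS (median −0.40), among them Actc1 (−1.10 ± 0.04), Myh7 (−1.23 ± 0.08) and Myom1 (−0.88 ± 0.05). Against BMP2, BMP2+DM had 5 of them higher and 0 lower (0 with DESeq2 and 2 at an unadjusted p under 0.05; median 0.07), led by Myom2 at 1.51 ± 0.08, with Actc1 at 0.41 ± 0.04 and Myom1 at 0.31 ± 0.05. Against PBS, BMP2+DM had 2 higher and 16 lower (median −0.33), with Tpm1 at −0.42 ± 0.04. The summed level of the 20 was 37264 to 37656 CPM in BMP2+DM, 34747 to 34882 CPM in BMP2 and 44629 to 45238 CPM in PBS libraries. Fewer cardiomyocytes and less of these RNAs per cardiomyocyte cannot be told apart in bulk RNA, and the part of sarcomere or cell-type shifts in the fall of Cryab and Hspb1 was not tested. Hspb7 kept another order than the sarcomere sum, being lowest in BMP2+DM. Single sarcomere genes were mixed in this respect. In BMP2+DM against BMP2, 5 of the 20 had a negative log2 fold change, though none was called, and 15 a positive one. Tpm1 had the same order as Hspb7, averaging 4220 CPM in BMP2+DM, 4504 CPM in BMP2 and 5644 CPM in PBS.

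Smooth muscle and pericyte markers, from cells that also express small heat shock proteins, fell in 4 of 7 and rose in 0 in BMP2 against PBS (5 and 0 at an unadjusted p under 0.05, 4 and 0 with DESeq2). Their summed level was 1981 to 2082 CPM in BMP2+DM, 1965 to 2029 CPM in BMP2 and 3210 to 3279 CPM in PBS libraries, and none of the 7 was at 0 in every library. Markers of the other cell types also moved. Epicardial and mesothelial markers, of which 7 were tested, had 0 higher and 4 lower in BMP2 against PBS (median −1.40; 0 and 5 at an unadjusted p under 0.05, 0 and 4 with DESeq2), and 3 higher and 1 lower in BMP2+DM against BMP2 (median 0.54). Their summed level was 149 to 168 CPM in BMP2+DM, 138 to 144 CPM in BMP2 and 207 to 218 CPM in PBS libraries. This is the same order of groups as for Hspb1 and Cryab, and also as for the cardiomyocyte marker and sarcomere sums. Among the epicardial markers Lrrn4 went the other way. It was at 0.10 ± 0.12 in BMP2 against PBS, not called, and at −1.12 ± 0.13 in BMP2+DM against BMP2. Of 7 fibroblast markers, 1 was higher and 5 were lower in BMP2 against PBS (median −0.21). Their values ran from −1.14 ± 0.07 for Thy1 to 0.54 ± 0.05 for Col3a1. In BMP2+DM against BMP2, 3 were higher and 4 lower (median −0.20). The fibroblast sum was 10102 to 10587 CPM in BMP2+DM, 11025 to 11290 CPM in BMP2 and 11166 to 11875 CPM in PBS libraries. Endothelial markers summed to 137 to 147 CPM in BMP2+DM, 201 to 213 CPM in BMP2 and 231 to 237 CPM in PBS libraries, and leukocyte markers to 62.0 to 64.6, 69.0 to 69.5 and 92.1 to 92.2 CPM in the same groups. The part of these shifts in the fall of Hspb1, Hspb6 and Cryab was not tested.

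Genes that act with BAG3 in filament turnover moved in both directions. Of 9 such genes, 1 rose and 4 fell in BMP2 against PBS, 3 rose and 0 fell in BMP2+DM against BMP2, and 4 rose and 3 fell in BMP2+DM against PBS (medians −0.18, 0.07 and −0.09). For the 0 falls, 2 genes were lower at an unadjusted p under 0.05 and 1 was called lower by DESeq2. Synpo2, whose product links BAG3 to autophagosome formation at filamin, rose by 0.67 ± 0.09 with BMP2 against PBS. Des, which encodes the intermediate filament desmin that Cryab's product protects, fell by 0.82 ± 0.07, and the filamin gene Flna by 0.29 ± 0.05. Des was also lower in BMP2+DM than in PBS (−0.76 ± 0.07), as was Flna (−0.44 ± 0.05). With dorsomorphin against BMP2, the autophagosome gene Map1lc3b rose by 0.45 ± 0.08, the lysosomal membrane gene Lamp2 by 0.21 ± 0.05 and the autophagy receptor gene Sqstm1 by 0.18 ± 0.05. Lamp2 was at 0.34 ± 0.05 in BMP2+DM against PBS.

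Other small heat shock proteins were scarce apart from Hspb2. Of 5 (Hspb2, Hspb3, Cryaa, Hspb9 and Odf1), 2 passed the filter, and Cryaa and Odf1 had no count in any library. Hspb3 did not pass in any comparison (−0.04 ± 0.45 in BMP2 against PBS). Of the other BAG family genes, Bag1, Bag2, Bag4, Bag5 and Bag6, 0 of 5 were called by edgeR or by DESeq2 in any comparison; at an unadjusted p under 0.05, 1 was higher in BMP2 against PBS, 0 in BMP2+DM against BMP2 and 1 in BMP2+DM against PBS (medians 0.06 in BMP2 against PBS, 0.08 in BMP2+DM against BMP2, and 0.16 in BMP2+DM against PBS).

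Several ATP-dependent chaperone genes outside the 10 rose with BMP2. Of 16 other cytosolic HSP70, HSP110, HSP90 and J-domain genes, 4 rose and 1 fell in BMP2 against PBS (median 0.07). Hspa8, which encodes the constitutive HSC70 that works with BAG3, was at 0.23 ± 0.05, and Hspa4, an HSP110-family nucleotide exchange factor gene, at 0.26 ± 0.05. Dnaja4 fell by 0.58 ± 0.10. With dorsomorphin against BMP2, 1 rose and 2 fell (median 0.01): Dnajb5 was at 0.47 ± 0.12, Hsp90ab1, the constitutive HSP90 gene, at −0.23 ± 0.05, and Dnaja1 at −0.27 ± 0.07. Against PBS, 3 rose and 1 fell in BMP2+DM (median 0.04), with Dnaja2 at 0.34 ± 0.06, Hspa4l at 0.45 ± 0.10 and Hspa4 at 0.17 ± 0.05.

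Of 16 heat shock factors and co-chaperones, 3 rose and 0 fell in BMP2 against PBS (median 0.14). They were the HSP90 ATPase activator gene Ahsa1 (0.45 ± 0.08), the HSP90-bound immunophilin gene Fkbp4 (0.41 ± 0.08) and Stip1, which joins HSP70 to HSP90 (0.19 ± 0.05). With dorsomorphin against BMP2, 0 rose and 3 fell (median −0.08): Fkbp4 (−0.41 ± 0.08), the HSP90 co-chaperone gene Ptges3 (−0.29 ± 0.08) and Stip1 (−0.18 ± 0.05). For BMP2+DM against PBS, 1 rose and 0 fell (median 0.03), Ahsa1 at 0.38 ± 0.08. DESeq2 gave the same counts in these 3 comparisons. At an unadjusted p under 0.05 the counts were 5 and 0 in BMP2 against PBS, 1 and 5 in BMP2+DM against BMP2, and 3 and 1 in BMP2+DM against PBS. Hsf1, which encodes heat shock factor 1, was not called and stood at 0.15 ± 0.12 in BMP2 against PBS (adjusted p = 0.467).

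Mitochondrial chaperones rose in 4 of 7 with 0 falls in BMP2 against PBS (median 0.28). Hspd1, which encodes HSP60, was at 0.48 ± 0.05, the mitochondrial HSP70 gene Hspa9 at 0.45 ± 0.05 and its exchange factor gene Grpel1 at 0.44 ± 0.09. Against PBS, 5 rose and 0 fell in BMP2+DM (median 0.31), with Hspa9 at 0.57 ± 0.05, Grpel1 at 0.45 ± 0.09 and Hspd1 at 0.31 ± 0.05. With dorsomorphin against BMP2, 0 rose and 1 fell (median 0.04), Hspd1 at −0.16 ± 0.05. DESeq2 called 3 higher and 0 lower in BMP2 against PBS, 4 and 0 in BMP2+DM against PBS, and 0 and 1 in BMP2+DM against BMP2. At an unadjusted p under 0.05 the counts were 4 and 0, 5 and 0, and 1 and 1 in the same order. Over these lists without the sarcomere genes, 12 of 55 tested genes rose and 6 fell in BMP2 against PBS, 5 rose and 6 fell in BMP2+DM against BMP2, and 13 rose and 4 fell in BMP2+DM against PBS. Over all tested genes the shares higher and lower were 6.55% and 9.29%, 4.28% and 4.44%, and 9.38% and 11.5% in the same order, and the falls of these lists in BMP2 against PBS were near that background.

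**Figure D5:**
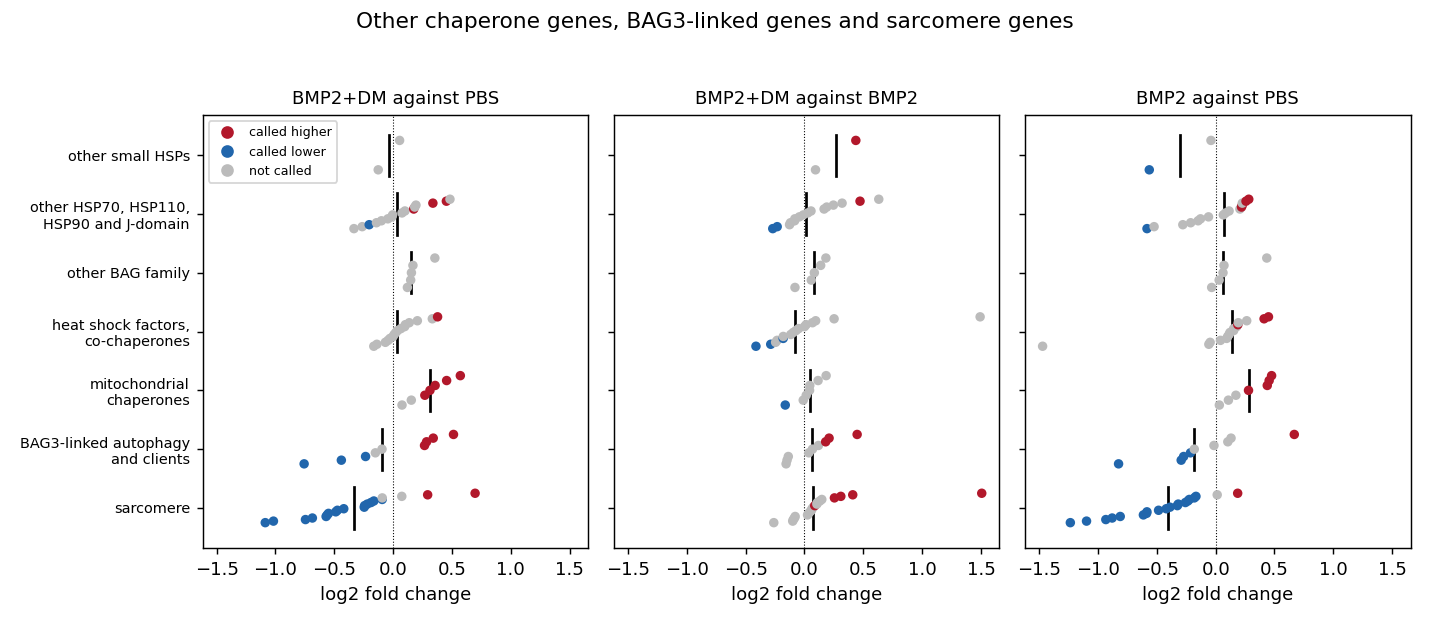
Log2 fold changes of single genes (points) in lists of other chaperone genes, BAG3-linked genes and sarcomere genes, in BMP2+DM against PBS, BMP2+DM against BMP2, and BMP2 against PBS; black bars are list medians, and colours mark genes called higher (red), lower (blue) or not called (grey). In BMP2 against PBS, mitochondrial chaperones have a median of 0.28 and sarcomere genes of −0.40.

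Genes with the most similar profile were sought for Cryab, Hspb8 and Hspb7, the members with the smallest p in any comparison, by Pearson correlation of log2 CPM over the 6 libraries among 11052 genes with a mean log2 CPM of at least 2. Cryab was closest to Synm, which encodes the intermediate filament protein synemin (r = 0.997), Irf9 (r = 0.997) and Adamts14 (r = 0.996). Synm averaged 7.95 CPM in BMP2+DM, 6.66 CPM in BMP2 and 15.8 CPM in PBS. Hspb8 was closest to Inhbb, which encodes an activin subunit (r = 0.995), Tmem45a (r = 0.993) and Canx (r = 0.992). Inhbb averaged 29.97 CPM in BMP2+DM, 57.1 CPM in BMP2 and 24.5 CPM in PBS. Hspb7 was closest to Cd109 (r = 0.998), Surf4 (r = 0.997) and Eng, which encodes the TGF-beta co-receptor endoglin (r = 0.996). The correlation does not measure the size of a change, and some of these genes moved little. Canx averaged 599 CPM in BMP2+DM, 629 CPM in BMP2 and 592 CPM in PBS. Surf4 averaged 329, 362 and 379 CPM in the same groups. The 6 points fall in 3 groups and share their libraries, so these values are descriptions.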

How the data were processed

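RNA was measured in 6 libraries of primary cardiomyocytes, grouped by the treatment in the labels. Values are whole read counts for each gene symbol, as the authors deposited them, made with FastQC, Trimmomatic, STAR, HTSeq and DESeq2 on mm10 per the submitters' processing notes. The labels name no version, gene annotation, strand setting or read layout. The 5 summary lines of each file name no gene, held 53.8% to 54.2% of the total and were left out. Most of this was reads in no annotated feature, at 49.7% to 50.1% of the total. Reads aligned to more than 1 place made up 3.80% to 4.39%, and ambiguous reads 0.133% to 0.138%. The part of the strand setting in the reads without a feature was not tested.

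All 6 libraries were fitted together by group in edgeR 4.0.16 (R 4.3.3) with filterByExpr (minimum count 10, minimum total 15), TMM factors, the quasi-likelihood F test and Benjamini-Hochberg adjustment over 14378 genes (threshold 0.05, 3 residual degrees of freedom). SEs were derived from the log2 fold change and its F statistic. Within groups, libraries varied beyond sampling noise (chi-square per degree of freedom 3.80 in BMP2+DM, 16.6 in BMP2 and 12.9 in PBS). The ribosomal-repeat models, which differed strongly within the BMP2 and PBS pairs, were included in these values. They therefore do not measure the spread of the other genes alone. The 15 alternatives used limma 3.58.1 (voom), DESeq2 1.42.0, other size factors, no filter, a replicate block, only the 2 groups compared, or fewer libraries. A further one summed Hspa1a and Hspa1b. That fit, and fits without a library of the group not compared, kept all libraries of the compared groups. They could hardly change the call of another member, so counts out of 15 overstate how hard the calls were tested. Gene positions, exon lengths and shared 50-base stretches come from GENCODE vM21 (mm10), and promoters from RefSeq. All 10 members are named. Of each chaperone or sarcomere list, up to 3 called genes per comparison with the smallest p are named. Markers are summed, and the lowest and highest fibroblast markers in BMP2 against PBS are named. Cardiomyocyte markers that were not called there, or that are also in the sarcomere list, are named too, as is the epicardial marker Lrrn4. The 10 members and the lists were chosen with earlier results of these data known.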

Additional observations from a re-analysis of the deposited data

How the results depend on the processing

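The calls for Cryab (BMP2 and BMP2+DM against PBS), Hspb8 (BMP2 against PBS, BMP2+DM against BMP2) and Hspb7 (BMP2+DM against PBS) were kept in 15 of 15 alternatives. With library sizes only, 2 rose in BMP2 against PBS, 2 rose in BMP2+DM against BMP2 and 1 rose in BMP2+DM against PBS; that scaling moved the median of all genes by 0.029, 0.028 and 0.056. With DESeq2 or limma-voom, 2 rose in BMP2 against PBS; with DESeq2, 2 fell there. Without the 2 libraries high in ribosomal-repeat models, 1 fell in BMP2 against PBS, and 0 rose and 1 fell in BMP2+DM against BMP2; fewer samples were then used. Over all genes that fit called 171 higher and 403 lower in BMP2 against PBS, 137 and 176 in BMP2+DM against BMP2, and 533 and 855 in BMP2+DM against PBS, compared with 942 and 1335, 616 and 639, and 1349 and 1658 with all libraries. Leaving out 1 library gave 475 to 1028 higher and 843 to 1442 lower, 314 to 528 and 356 to 553, and 742 to 1298 and 1085 to 1630 in the same order. With no filter, 3 fell in BMP2+DM against PBS. Among the members, leaving out 1 library gave 2 to 3 falls in each comparison, 1 rise in BMP2 against PBS and in BMP2+DM against BMP2, and 0 rises in BMP2+DM against PBS; a group left with 1 library was assumed to vary like the others. Without BMP2 replicate 1, Hspa1a was among the calls.

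Signs turned only for values that edgeR did not call with all libraries. In BMP2 against PBS, leaving out 1 library gave −0.0024 to 0.022 for Bag3, −2.24 to 0.034 for Hspa1a and −0.47 to 0.057 for Hspa1b. In BMP2+DM against BMP2 it gave −0.070 to 0.13 for Hspb6, −0.30 to 0.14 for Hspa1b and −0.085 to 0.049 for Dnajb1; Hspb6 was at −0.048 without both ribosomal-repeat libraries, and Dnajb1 at 0.0076 with library sizes only. In BMP2+DM against PBS it gave −0.33 to 0.95 for Hspa1a, which was −0.12 when summed with Hspa1b, and Hsp90aa1 was at 0.020 with library sizes only. The cause of these changes was not tested.

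The labels share replicate numbers, but deviations of same-numbered libraries hardly correlated (r of −0.03 to 0.08), so the numbers were not taken as pairs. With a replicate block the counts were 1 higher and 3 lower in BMP2 against PBS, 1 and 3 in BMP2+DM against BMP2, and 0 and 2 in BMP2+DM against PBS. Low counts limit Hspa1a and Hspa1b most.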

Other observations

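The share of Hspa1 reads assigned to Hspa1a varied between libraries of a group. It was 33.1% (95% exact binomial interval 25.1% to 41.9%) and 48.8% (39.8% to 57.9%) in BMP2+DM libraries. In BMP2 libraries it was 39.3% (30.6% to 48.6%) and 10% (4.90% to 17.6%), and in PBS libraries 46.4% (39.1% to 53.7%) and 19.7% (13.7% to 27.0%). The intervals cover counting error only; within BMP2 and within PBS they do not overlap, and the higher share was in the library with more ribosomal-repeat counts. The part of those counts in the split was not tested.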
